A study of Mus musculus with 12 samples.

Results

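The genes described here are 39 type I interferon-stimulated genes, taken by name from the 23329 rows of the mouse count tables, and all 39 were found. They were listed without the Oas, Gbp and Schlafen families. The question put to them was whether they changed under a lymphotoxin beta receptor (LTbR) agonist in spleen and in duodenum, and whether the 2 tissues agreed gene by gene. Messenger RNA had been sequenced from spleen and duodenum of wild type mice 2 months of age from the inbred strain C57BL/6J. They had been given AC H6, an antibody that activates LTbR, or an isotype control antibody. Each mouse was dosed with 100 ul at 1 mg/ml and the tissues were taken after 24 hours. This gave 4 groups of 3 libraries, 12 in all: spleen isotype, spleen AC H6, duodenum isotype and duodenum AC H6. Whole tissue was sequenced, so fewer cells of a type and less RNA per cell cannot be told apart. The design text gives 3 mice per group, and the labels do not say whether a spleen and a duodenum library came from the same mouse.

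Type I interferons bind a shared receptor, IFNAR, whose kinases activate STAT proteins. STAT2 and IRF9 belong to the ISGF3 complex, which binds the interferon-stimulated response element (ISRE) in the promoters of its target genes. The targets include sensors of viral RNA and DNA, proteins that block entry, translation or budding of viruses, and regulators that strengthen or end the signal. Many of them can also be raised by interferon gamma, by type III interferons in epithelium, or by IRF3 and IRF7 directly. LTbR, which belongs to the tumour necrosis factor receptors, is needed for lymphoid organ formation and signals through the classical and the alternative NF-kB pathway.

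The ISRE is shown first because it is the sequence that ISGF3 binds in the promoters of its target genes. RefSeq promoter windows (GRCm38.p6), from 250 bases before to 50 bases after the annotated start, were matched to 28 of the 39 genes. The core searched was GAAANNGAAA on either strand. It was present in 13 of the 28 windows (46.4%), against 3.99% of the windows of 27025 genes. The stretches below are each read 5′ to 3′ on the gene's own strand, and all belong to genes that rose in the duodenum. Not shown are Ifit3 and Ddx58, which also held the core and rose there. Stat2, Eif2ak2, Ifih1 and Lgals9 held it too, are not shown and did not pass the test in the duodenum. The capitals mark every base covered by a match to the core. A run of TTTC in capitals is the core on the opposite strand.
Isg15, chr4:156200871-156200900, minus strand: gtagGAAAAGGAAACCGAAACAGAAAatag
Ifit1, chr19:34640785-34640814, plus strand: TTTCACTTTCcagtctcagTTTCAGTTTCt
Rsad2, chr12:26456553-26456582, minus strand: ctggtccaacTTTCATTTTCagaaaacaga
Bst2, chr8:71537580-71537609, minus strand: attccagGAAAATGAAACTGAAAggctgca
Ifitm3, chr7:141010714-141010743, minus strand: gGAAAAGGAAActtctgaGAAACCGAAAct
Igtp, chr11:58199512-58199541, plus strand: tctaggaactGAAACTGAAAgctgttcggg
Irgm1, chr11:48871428-48871457, minus strand: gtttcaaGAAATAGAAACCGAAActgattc
Isg15 held 3 overlapping matches, while Ifit1, Bst2, Ifitm3 and Irgm1 held 2 each in these stretches. In Ifitm3 the first match began at transcribed base 3, and in the other 6 it lay upstream of the start. The gamma-activated site TTCNNNGAA, to which STAT dimers bind, was present in 7 of 28 windows (25.0%), against 9.55% of all. A kappaB motif, the NF-kB site, was present in 5 of 28 (17.9%), against 9.55% of all. A match is a run of letters and was not shown here to be a bound site.

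Library totals lay between 13874091 (spleen isotype replicate 1) and 45847467 (spleen AC H6 replicate 1) counts, and the lowest count of any of the 39 genes in any library was 34. All 39 therefore passed the filter on low counts in both tissues. Haemoglobin genes held 7.59 to 19.0% of all counts in spleen under isotype and 15.7 to 28.3% under AC H6. In the duodenum, the 45S ribosomal precursor Rn45s took 7.56% of the counts in isotype replicate 1 and amylase 2 took 8.64% in AC H6 replicate 3. The 8 epithelial markers summed to 23.7 to 27.6 CPM in the spleen and to 13440 CPM or more in the duodenum, and the summed level of 5 brain markers stayed at or under 22.3 CPM (counts after scaling libraries to the same size) in all 12 libraries, although the extraction protocol speaks of brains. Expression is given below in CPM, scaled within the fit it belongs to, and a change is the log2 ratio of AC H6 to isotype ± its standard error. A gene is called where the quasi-likelihood test of edgeR gave a p under 0.05 after Benjamini-Hochberg adjustment across every gene tested.

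In the duodenum, 27 of the 39 genes rose, none fell, and 12 did not pass the test. Over all 15667 genes tested there, 18.5% were called higher and 16.1% lower. The median change of the 39 was 0.71 on the log2 scale, against 0.01 over all genes tested. In 28 of the 39 the lowest AC H6 library lay above the highest isotype library, a separation seen in 25.7% of all genes, and in none did the groups separate downwards, against 23.7%. The 12 genes of smallest p were Ifitm3, Bst2, Ifi27l2a, Isg15, Irf7, Herc6, Usp18, Zbp1, Dhx58, Ifit2, Ifi44 and Irgm1.

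**Figure D1:**
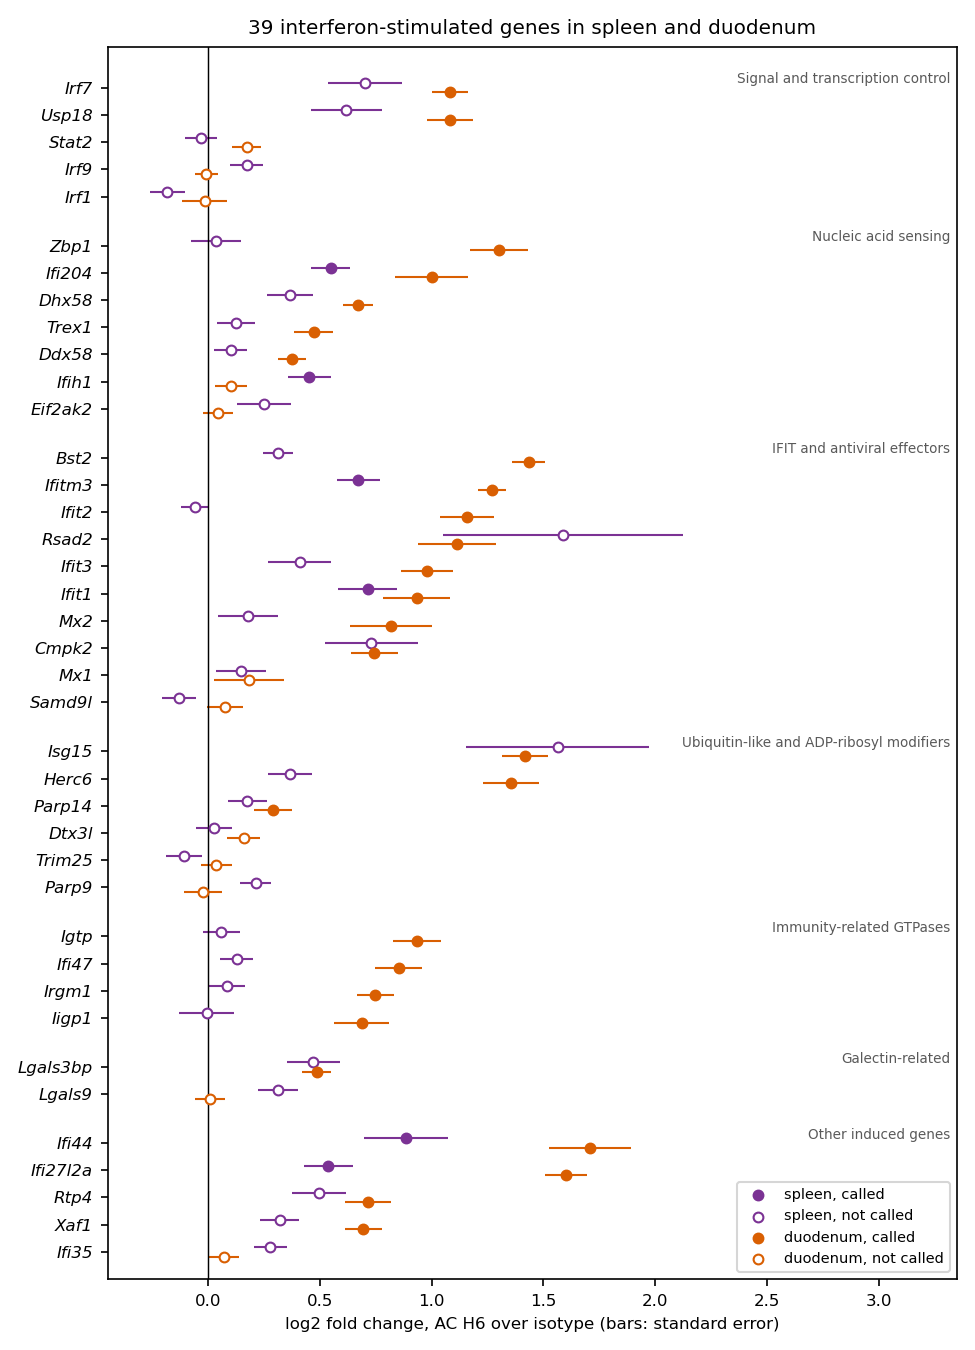
Log2 fold change of AC H6 over isotype (x axis) for each of the 39 genes (y axis), grouped by role. Purple is spleen and orange is duodenum, filled points are called at an adjusted p under 0.05, and bars are standard errors. The duodenum has 27 filled points and the spleen 6, all to the right of 0.

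Among the regulators of the signal, 2 of 5 rose in the duodenum. Irf7, the transcription factor that amplifies interferon production, was at 78.6, 66.7 and 67.5 CPM in the isotype libraries and at 146, 152 and 153 CPM in the AC H6 libraries. Its change was 1.08 ± 0.08 (adjusted p = 5.72e-05, edgeR). Usp18, the protease that removes ISG15 from proteins and damps signalling at IFNAR, was at 12.6, 9.85 and 10.6 CPM under isotype and at 21.2, 23.4 and 25.0 CPM under AC H6, a change of 1.08 ± 0.10 (adjusted p = 0.000192). Neither gene's groups overlapped. The ISGF3 genes Stat2 and Irf9 did not pass the test. Stat2 changed by 0.17 ± 0.07 (adjusted p = 0.0722) and Irf9 by -0.01 ± 0.05 (adjusted p = 0.917). Irf1, a factor induced by interferon gamma and by NF-kB, had a change of -0.02 ± 0.10 (adjusted p = 0.922).

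Of 7 nucleic acid sensors and related genes, 5 rose in the duodenum. Zbp1, a sensor of left-handed nucleic acid that can trigger cell death, went from 11.5, 11.2 and 9.02 CPM to 21.7, 28.3 and 28.3 CPM, a change of 1.30 ± 0.13 (adjusted p = 0.000245). Dhx58, which encodes the regulator LGP2 of the RNA sensors, went from 10.5, 9.85 and 9.87 CPM to 15.6, 16.1 and 16.3 CPM, a change of 0.67 ± 0.07 (adjusted p = 0.000264). Both sets of libraries were apart, and those of Dhx58 were close together within each group. Ifi204, of the DNA-binding Ifi200 family, rose by 1.00 ± 0.16 (adjusted p = 0.00262). Smaller rises were called for Trex1, a DNA exonuclease (0.47 ± 0.09, adjusted p = 0.00447), and Ddx58, which encodes the RNA sensor RIG-I (0.37 ± 0.06, adjusted p = 0.00295). Trex1 lies over its whole length of 1802 bases within the annotated gene Atrip on the same strand, so reads could be shared with that row. Ifih1, which encodes the RNA sensor MDA5, and Eif2ak2, which encodes the RNA-activated kinase PKR, had changes of 0.10 ± 0.07 and 0.04 ± 0.07 (adjusted p = 0.297 and 0.652).

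Of 10 IFIT and other antiviral effectors, 8 rose in the duodenum. Ifitm3, a membrane protein that blocks virus entry through endosomes, was at 34.0, 33.1 and 36.2 CPM under isotype and at 83.8, 77.9 and 87.6 CPM under AC H6, a 2.41-fold rise (log2 1.27 ± 0.06, adjusted p = 7.28e-06). Bst2, or tetherin, which holds budding virions on the cell surface, was at 13.7, 11.9 and 12.2 CPM under isotype and at 36.1, 32.7 and 32.8 CPM under AC H6, a 2.70-fold rise (log2 1.43 ± 0.07, adjusted p = 7.89e-06). For both genes the gap between the groups was many times the spread within them. Ifit2, one of the IFIT proteins that bind viral RNA and restrain its translation, went from 6.01, 6.54 and 5.49 CPM to 11.7, 15.4 and 13.3 CPM (1.16 ± 0.12, adjusted p = 0.000328). Its neighbours on chromosome 19 rose with it, Ifit1 by 0.93 ± 0.15 and Ifit3 by 0.98 ± 0.12. Rsad2, which encodes viperin, an enzyme that makes a chain-terminating nucleotide, rose by 1.11 ± 0.17 (adjusted p = 0.00211). Cmpk2, a nucleotide kinase beside Rsad2 on chromosome 12, rose by 0.74 ± 0.10 (adjusted p = 0.00124). The dynamin-like GTPase Mx2 was low, at 1.47 to 1.52 CPM under isotype and 2.24 to 3.25 CPM under AC H6 (0.82 ± 0.18, adjusted p = 0.01), and is annotated as a polymorphic pseudogene. The related Mx1, with a change of 0.18 ± 0.16, and Samd9l, with 0.08 ± 0.08, did not pass the test.

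Of 6 ubiquitin-like and ADP-ribosyl modifiers, 3 rose in the duodenum. Isg15, a ubiquitin-like protein that is attached to other proteins and also secreted, was at 17.9, 13.05 and 14.3 CPM under isotype and at 39.2, 39.9 and 41.3 CPM under AC H6, a 2.67-fold rise (log2 1.42 ± 0.10, adjusted p = 5.05e-05). Herc6, the ligase that attaches ISG15 in mice, went from 21.1, 16.7 and 17.4 CPM to 39.01, 48.4 and 52.9 CPM (1.35 ± 0.12, adjusted p = 0.000163). Isg15, its ligase Herc6 and its protease Usp18 were thus all higher in each AC H6 library than in each isotype library. Parp14, an ADP-ribosyl transferase, had a rise of 0.29 ± 0.08 (adjusted p = 0.0276) that kept its call in 13 of 16 alternatives. Among those that lost it were the fits without duodenum isotype replicate 3 or AC H6 replicate 2 (adjusted p = 0.0883 and 0.1). Trim25, Parp9 and Dtx3l did not pass the test, with changes from -0.02 to 0.16.

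All 4 immunity-related GTPases, which act on the vacuoles of intracellular pathogens, rose in the duodenum. Irgm1, a regulator of the family, was at 16.3, 14.1 and 13.9 CPM under isotype and at 23.2, 26.5 and 24.6 CPM under AC H6 (0.75 ± 0.08, adjusted p = 0.000397). Igtp, or IRGM3, went from 14.4, 11.8 and 13.9 CPM to 22.7, 28.8 and 25.2 CPM (0.94 ± 0.11, adjusted p = 0.000478). Ifi47, or IRG-47, went from 11.8, 9.94 and 8.92 CPM to 17.0, 19.3 and 18.9 CPM (0.85 ± 0.11, adjusted p = 0.000743). Iigp1, an effector of the family, went from 7.24, 9.97 and 9.46 CPM to 13.05, 15.5 and 14.7 CPM (0.69 ± 0.12, adjusted p = 0.00391). In none of the 4 did the groups overlap. Igtp and Ifi47 overlap the annotated genes Irgm2 and Olfr56 on the same strand, so reads could be shared with those rows.

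Of the 2 galectin-related genes, Lgals3bp, a secreted glycoprotein that binds galectins, rose by 0.49 ± 0.07 (adjusted p = 0.0011), and Lgals9, a galectin, had a change of 0.01 ± 0.07 (adjusted p = 0.925). Of 5 other induced genes, 4 rose. Ifi27l2a, of a family of small membrane proteins, went from 7.32, 7.77 and 7.003 CPM to 24.6, 19.9998 and 22.4 CPM, a 3.03-fold rise (log2 1.60 ± 0.09, adjusted p = 1.75e-05). Ifi44, an interferon-induced cytoplasmic protein, went from 2.37, 2.11 and 1.48 CPM to 6.14, 5.74 and 7.43 CPM, a 3.27-fold rise (log2 1.71 ± 0.18, adjusted p = 0.000352). These 2 genes had the highest log2 changes of the 39 in the duodenum. Rtp4, a receptor-trafficking protein (0.71 ± 0.10), and Xaf1, a pro-apoptotic factor (0.69 ± 0.08), also rose, and Ifi35 had a change of 0.07 ± 0.07 that did not pass.

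Markers of other cells moved in the same duodenum libraries. All 5 macrophage markers tested there were higher under AC H6, with the summed level of the list of 7 at 151 to 158 CPM under isotype and 270 to 290 CPM under AC H6. Of 8 neutrophil markers tested, 5 were higher and 1 lower. The summed level of the list of 10 was 48.9 to 52.9 CPM under isotype and 84.9 to 100.1 CPM under AC H6, mostly from Mmp9 (mean 23.0 and 55.8 CPM) and Ltf (19.8 and 26.7 CPM, not called). Mmp9 did not pass the test between the tissues under isotype, while S100a8, S100a9, Cxcr2 and Ngp had means under 1 CPM in both duodenum groups. Of 6 monocyte markers 4 were higher and 1, Fn1, was lower (mean 110 and 74.8 CPM). The summed level of the 6 was lower, at 115 to 133.5 CPM under isotype and 98.1 to 114.1 CPM under AC H6. Of 8 epithelial markers 7 were lower (17310 to 18870 CPM against 13440 to 14190 CPM in sum). Of 5 plasmacytoid dendritic cell markers, 1 was higher, Siglech at 0.98 ± 0.18. No marker of the macrophage, monocyte or epithelial lists was at 0 in any duodenum library. The part of these cells in the rise of the 39 genes was not tested.

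**Figure D2:**
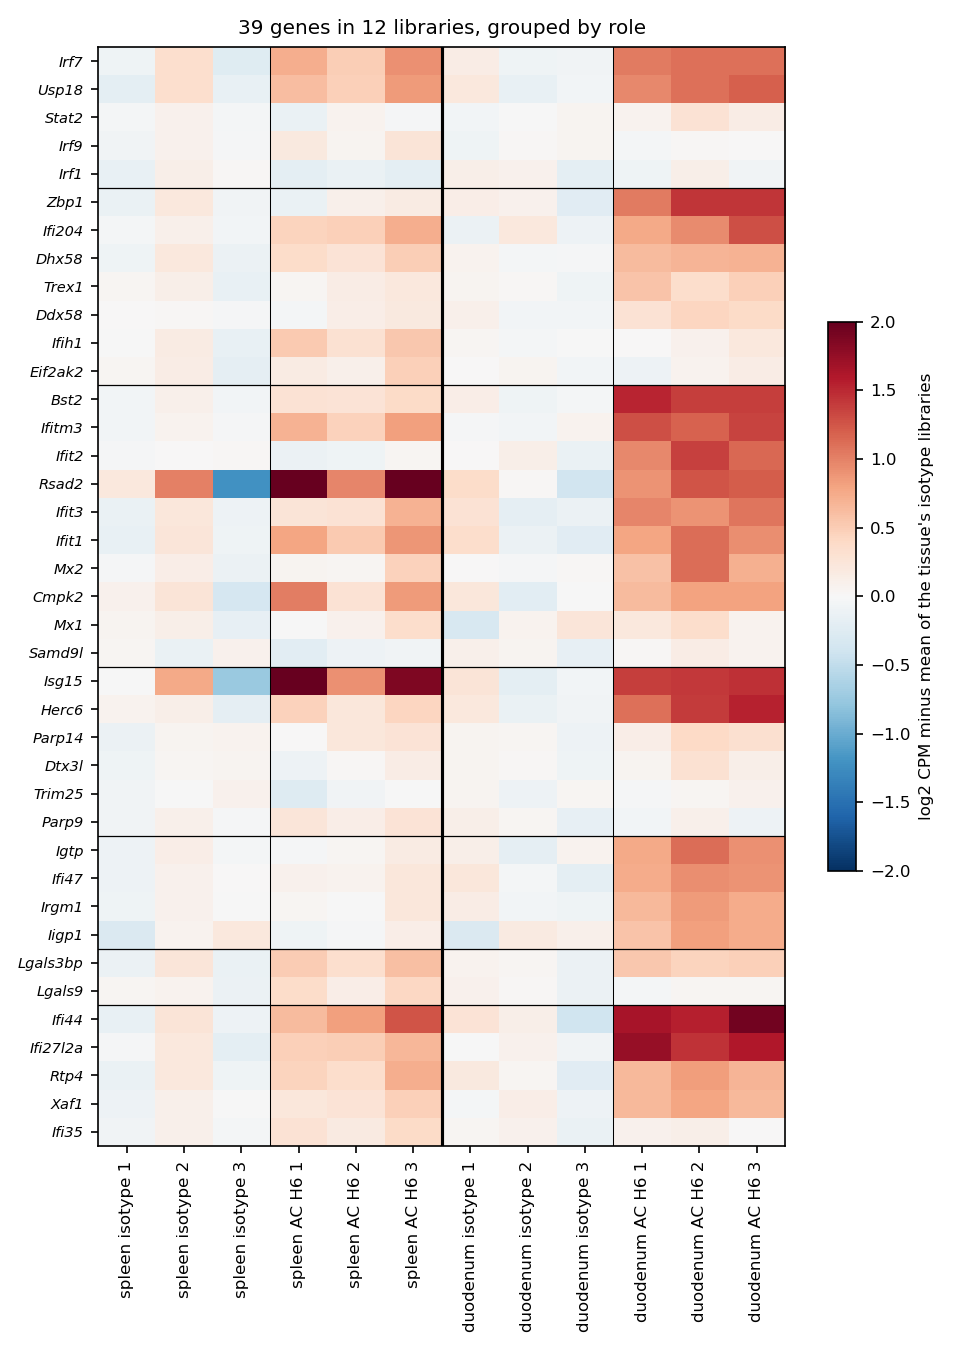
Each row is 1 of the 39 genes and each column 1 of the 12 libraries. Colour is log2 CPM minus the mean of that tissue's isotype libraries, from blue (lower) to red (higher), on a scale that stops at -2 and 2. The right-hand block of duodenum AC H6 libraries is red in most rows, while the spleen AC H6 block is paler except in Rsad2, Isg15 and a few others.

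In the spleen, 6 of the 39 genes rose, none fell, and 33 did not pass the test. Over all 15270 genes tested, 2.06% were called higher and 1.92% lower. The median change of the 39 was 0.28 on the log2 scale, against -9e-04 over all genes tested, and 33 of the 39 changes were positive. In 20 of the 39 the AC H6 libraries all lay above the isotype libraries, against 15.9% of all genes, and in none did they all lie below, against 16.6%. The 6 calls were at adjusted p from 0.022 to 0.0493, and none of the 39 was called when any 1 of isotype replicates 1, 2 or 3 or AC H6 replicates 1 or 3 was left out. In those 5 fits the calls over all genes fell from 608 to between 14 and 104, while the median change of the 39 stayed at 0.23 to 0.34 and that of Ifitm3 at 0.59 to 0.71. Leaving out AC H6 replicate 2 gave 14 calls, with 1132 over all 15094 genes tested.

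Ifitm3 had the smallest p in the spleen. It was at 102, 111 and 105 CPM in the isotype libraries and at 172, 146 and 188 CPM in the AC H6 libraries, a change of 0.67 ± 0.10 (adjusted p = 0.022). Ifit1 went from 13.2, 17.2 and 13.7 CPM to 25.1, 21.1 and 26.8 CPM (0.71 ± 0.13, adjusted p = 0.0355). In both genes AC H6 replicate 2 was the lowest of its group and isotype replicate 2 the highest of its own, yet the groups did not overlap. Ifi204 went from 35.6, 39.5 and 35.2 CPM to 50.1, 51.0 and 60.6 CPM (0.55 ± 0.09, adjusted p = 0.0272). Ifih1 went from 34.3, 38.4 and 31.1 CPM to 49.5, 42.6 and 50.3 CPM (0.45 ± 0.10, adjusted p = 0.0493). Both are sensors, of DNA and of RNA, and Ifih1 was the only gene of the 39 called in the spleen and not in the duodenum. Ifi27l2a went from 82.3, 97.1 and 73.4 CPM to 117, 118 and 133 CPM (0.54 ± 0.11, adjusted p = 0.0438). Ifi44 went from 5.08, 6.78 and 5.27 CPM to 8.76, 9.95 and 13.6 CPM (0.88 ± 0.19, adjusted p = 0.0488). Ifi44 had the highest log2 change of the 6 called genes. Just outside the threshold lay Bst2 (0.31 ± 0.07, adjusted p = 0.0505) and Irf7 (0.70 ± 0.17, adjusted p = 0.0606).

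The 2 genes with the highest changes in the spleen did not pass the test. Rsad2 was at 101, 175 and 37.7 CPM in the isotype libraries and at 424, 171 and 349 CPM in the AC H6 libraries, so AC H6 replicate 2 lay below isotype replicate 2. Its change was 1.59 ± 0.54 (adjusted p = 0.121). Isg15 was at 29.8, 50.5 and 17.9 CPM under isotype and at 126, 56.3 and 110 CPM under AC H6, a change of 1.56 ± 0.41 (adjusted p = 0.0755) with groups that only just separated. Both varied more between libraries of a group than in the duodenum, where each group of Isg15 lay within 13.05 to 17.9 CPM and 39.2 to 41.3 CPM.

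The share of haemoglobin counts moved with these 2 genes. It was 12.1, 19.0 and 7.59% in spleen isotype replicates 1 to 3 and 28.3, 15.7 and 22.5% in AC H6 replicates 1 to 3. Rsad2 alone of the 39 genes had its 6 libraries in exactly that order, and Isg15, Herc6, Cmpk2 and Rsad2 followed it within each group. With the mean log2 CPM of 6 erythroid markers as a covariate, the change of Rsad2 was 0.40 and that of Isg15 0.64. None of the 39 was then called, their median change was 0.16, and the calls over all genes fell from 608 to 185. The changes of Ifitm3, Ifi204 and Ifi44 were 0.58, 0.48 and 0.79 in that fit. Without isotype replicate 3 and AC H6 replicate 1, the libraries with the lowest and the highest haemoglobin share, the changes were 0.91 and 1.01. The erythroid share itself was not called different between the groups, with 0 of 6 markers called and a median change of 1.29. Its part in the values of Rsad2 and Isg15 was not tested beyond these fits.

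**Figure D3:**
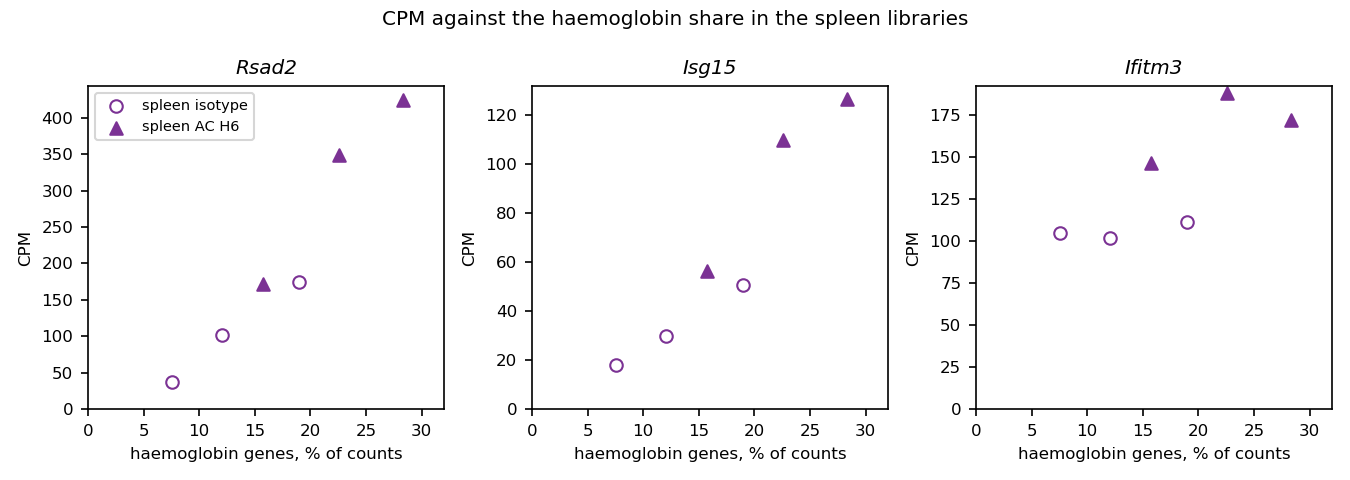
CPM of Rsad2, Isg15 and Ifitm3 (y axes, each from 0) against the share of counts from haemoglobin genes in percent (x axis) in the 6 spleen libraries. Open circles are isotype and triangles AC H6. Rsad2 and Isg15 climb with the share within both groups. The 3 isotype values of Ifitm3 lie between 102 and 111 CPM over shares of 7.59 to 19.0%. Its AC H6 values are 146, 188 and 172 CPM at shares of 15.7, 22.5 and 28.3%.

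The other 33 genes in the spleen ranged from -0.18 ± 0.08 for Irf1 to the values of Rsad2 and Isg15 above. By role, none of 5 regulators, 2 of 7 sensors, 2 of 10 antiviral effectors, none of 6 modifiers, none of 4 immunity-related GTPases, none of 2 galectin-related genes and 2 of 5 other induced genes were called. At an unadjusted p under 0.05 there were 21 of the 39, against 4260 of all 15270 genes tested. DESeq2 called 19 of the 39 at its adjusted p under 0.05, and 1 edgeR fit of all 12 libraries called 17, while the calls over all genes went from 608 to 1356 and 1390. Immune cell markers moved as well. Of 10 neutrophil markers 9 were higher under AC H6 (597 to 909 CPM against 1755 to 2489 CPM in sum), as were 5 of 7 macrophage markers (1156 to 1286 CPM against 1540 to 1610 CPM). Of 6 monocyte markers 4 were higher (360.6 to 445.3 CPM against 536 to 590.5 CPM). Of 6 T cell markers 4 were lower (394 to 451 CPM against 295 to 327 CPM), and of 5 plasmacytoid dendritic cell markers 1 was lower (196 to 219 CPM against 161 to 180 CPM). Of 5 B cell markers 1 was called lower (2501 to 2680 CPM against 2009 to 2257 CPM), and in all 5 the AC H6 libraries lay below the isotype libraries. No marker of these lists was at 0 in any spleen library, and their part in the spleen values was not tested.

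Gene by gene, the direction was shared by 32 of the 39 genes, 31 positive in both tissues and 1, Irf1, negative in both, neither passing the test. This is 82.1%, against 52.6% of the 14366 genes tested in both tissues. Of the rest, 5 were negative in spleen and positive in duodenum, and 2, Irf9 and Parp9, were the other way round. None of those 7 was called in the spleen. Positive changes made up 33 of the 39 in the spleen and 36 in the duodenum, against 49.8% and 51.2% of all genes tested. With so many positive in each tissue, most signs would be shared whichever genes they were. The 82.1% therefore does not measure agreement gene by gene. Calls were shared by 5 genes, Ifitm3, Ifi204, Ifit1, Ifi27l2a and Ifi44, all higher in both. A further 22 were called in the duodenum, 1 in the spleen, and 11 in neither. Of the 14366 genes tested in both tissues, 181 were called in both in the same direction and 78 in opposite directions, 4828 in the duodenum alone, 293 in the spleen alone and 8986 in neither. Across the 39 genes, Pearson's r between the 2 tissues' log2 changes was 0.53 and Spearman's rho 0.50, as a description over genes that are not independent. The signed change was lower in the spleen for 31 of the 39, against 7255 of the 14366, and among the 31 are Irf1, Samd9l and Trim25, whose negative spleen values were the larger in size.

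**Figure D4:**
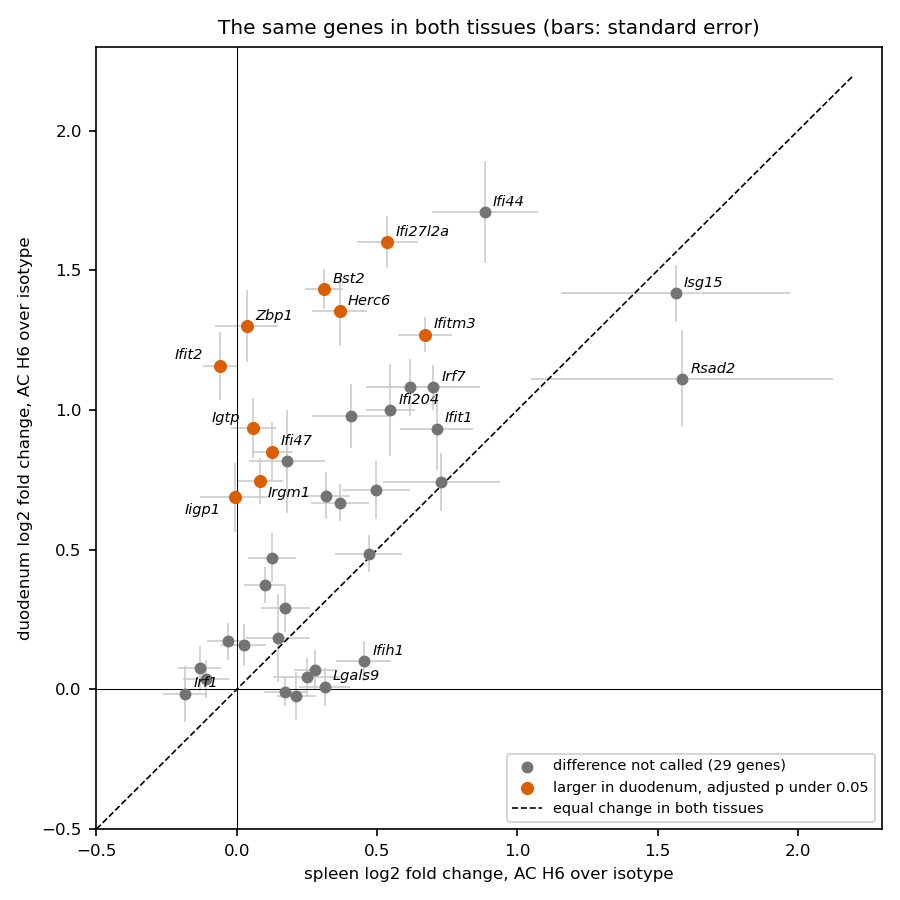
Log2 fold change in spleen (x axis) against duodenum (y axis) for the 39 genes, with standard errors as bars and equal change as the dashed line. Orange marks the 10 genes whose change differed between the tissues at an adjusted p under 0.05. All 10 lie above the dashed line, and Isg15 and Rsad2 lie below it with wide spleen bars.

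The difference between the tissues was tested as the interaction of tissue and treatment over all 12 libraries. It was called for 10 of the 39 genes, each with the larger change in the duodenum, and for none in the other direction, although other size factors and DESeq2 called 1 and 2 genes in that direction. Over the 16655 genes tested, 10.9% were called with the higher change in the duodenum and 9.13% with the lower. The 2 comparisons behind it share no libraries, but the labels do not say whether they share mice. The test treated the 12 libraries as independent, and no fit allowed for shared mice.

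Ifit2 had a change of -0.06 ± 0.06 in the spleen, where its isotype libraries were at 29.1, 29.8 and 30.3 CPM and its AC H6 libraries at 27.4, 27.98 and 30.4 CPM. It rose in the duodenum, and the difference was 1.20 ± 0.14 (adjusted p = 0.000141). Zbp1 was at 35.0, 44.3 and 36.4 CPM in spleen isotype libraries and at 34.9, 41.2 and 43.2 CPM under AC H6, and its difference was 1.25 ± 0.19 (adjusted p = 0.00108). The spleen groups of both genes overlapped while the duodenum groups were apart. Bst2 was at 64.7, 72.8 and 65.3 CPM in the spleen under isotype and at 82.7, 81.4 and 87.9 CPM under AC H6. Its difference was 1.10 ± 0.10 (adjusted p = 3.8e-05), the smallest p of the 39. Ifi27l2a (1.04 ± 0.16, adjusted p = 0.000948) and Ifitm3 (0.58 ± 0.12, adjusted p = 0.00678) rose in both tissues, and more in the duodenum. Herc6 was at 43.4, 44.9 and 36.5 CPM in the spleen under isotype and at 57.0, 48.4 and 55.8 CPM under AC H6, with a difference of 0.97 ± 0.18 (adjusted p = 0.00295).

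The other 4 were the immunity-related GTPases, the only role of which every listed gene was called in the interaction. In the spleen Igtp was at 62.8, 74.1 and 65.4 CPM under isotype and at 66.4, 69.3 and 75.5 CPM under AC H6, and its difference was 0.86 ± 0.14 (adjusted p = 0.00183). Ifi47 was at 70.5, 80.5 and 76.4 CPM and at 80.4, 79.8 and 88.4 CPM, with a difference of 0.70 ± 0.13 (adjusted p = 0.00367). Irgm1 was at 80.4, 90.6 and 85.1 CPM and at 87.5, 84.3 and 99.5 CPM, with a difference of 0.64 ± 0.12 (adjusted p = 0.00337). The spleen groups of all 3 overlapped. Iigp1 was at 38.3, 48.9 and 54.1 CPM and at 43.9, 46.0 and 51.3 CPM in the spleen, also overlapping, with a difference of 0.67 ± 0.19 (adjusted p = 0.0279). Its call was kept in 13 of 20 alternatives. It was lost, among others, when any 1 of 6 libraries was left out, spleen isotype replicate 2 or 3, spleen AC H6 replicate 1, duodenum isotype replicate 1, or duodenum AC H6 replicate 2 or 3 (adjusted p from 0.0542 to 0.0687).

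**Figure D5:**
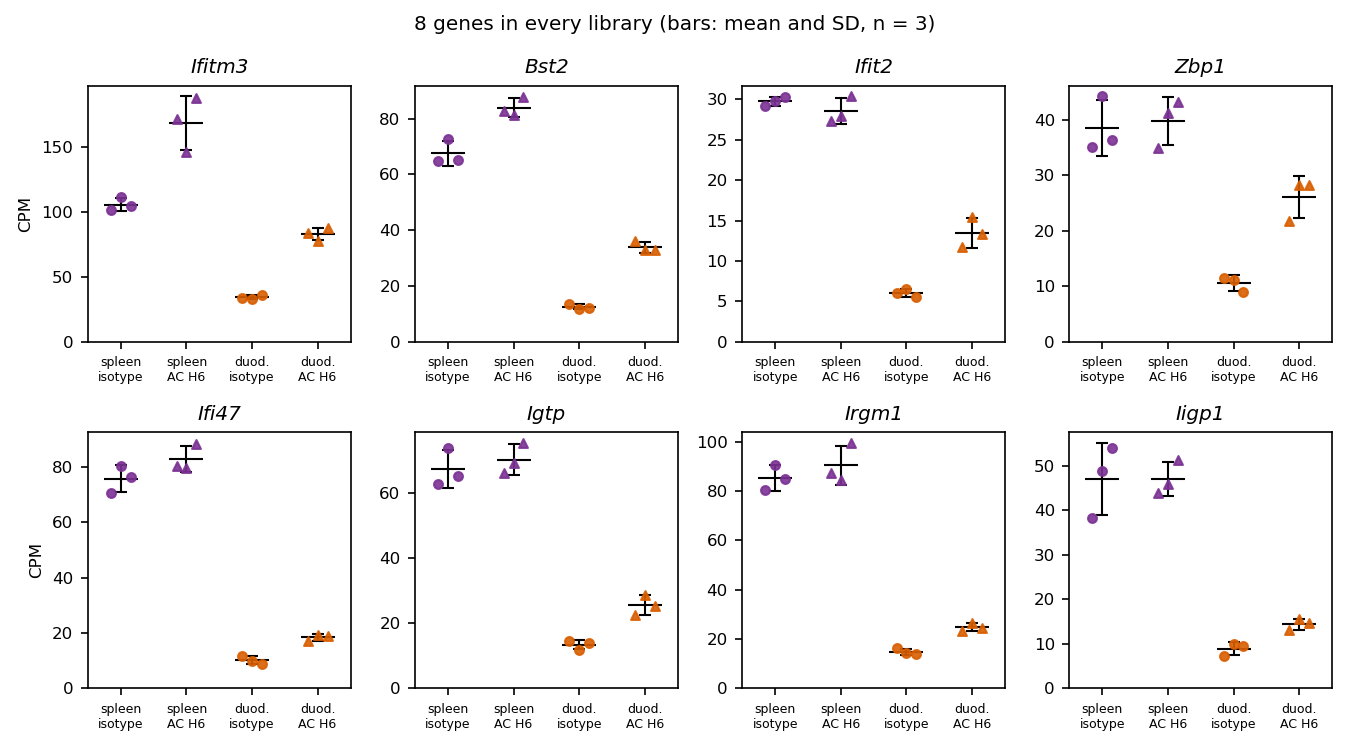
CPM (y axes, each from 0) of 8 of the 10 genes called in the interaction, in every library of the 4 groups. Circles are isotype, triangles AC H6, and bars are the mean and SD of 3 libraries, with CPM scaled within each tissue. In all 8 the duodenum AC H6 libraries lie above the duodenum isotype libraries, while in Ifit2, Zbp1 and the 4 GTPases the spleen groups overlap.

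For 29 genes the difference between the tissues did not pass the test. Ifih1, called in the spleen only, had a difference of -0.37 ± 0.12 (adjusted p = 0.0545), and Lgals9 one of -0.32 ± 0.11 (adjusted p = 0.0671). Isg15 and Rsad2 had differences of -0.17 ± 0.47 and -0.50 ± 0.64, whose errors leave room for a larger change in either tissue. The 11 genes called in neither tissue were Irf1, Irf9, Stat2, Eif2ak2, Mx1, Samd9l, Trim25, Parp9, Dtx3l, Lgals9 and Ifi35. Their changes ran from -0.18 to 0.31 in the spleen and from -0.02 to 0.18 in the duodenum. Among them are Stat2 and Irf9, whose proteins belong to ISGF3, and the pair Parp9 and Dtx3l, whose proteins form a complex and whose genes overlap on opposite strands, so that their reads cannot be told apart in part.

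Calls were also counted by the ISRE core, the gamma-activated site and the kappaB motif in the promoter windows, with no test of a difference. Of the 13 with the core, 9 rose in the duodenum, 3 in the spleen and 4 were called in the interaction. Of the 15 without it, 9 rose in the duodenum, 1 in the spleen and 3 were called in the interaction. The median change was 0.93 with the core and 0.48 without it in the duodenum, and 0.31 and 0.17 in the spleen. Stat2, Eif2ak2 and Lgals9 held the core and passed in neither tissue, while Irf7, Herc6, Ifi44 and Ifit2 were among those without it that rose in the duodenum. With the gamma-activated site, 4 of 7 rose in the duodenum, 1 in the spleen and 4 were called in the interaction. Without it these counts were 14, 3 and 3 of 21. With a kappaB motif they were 4, 1 and 3 of 5, and without it 14, 3 and 4 of 23. Duodenum medians with and without were 0.935 and 0.694 for the gamma-activated site and 1.16 and 0.694 for kappaB. Spleen medians were 0.25 and 0.32, and 0.126 and 0.314.

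The genes stood at different levels in the tissues under isotype antibody alone. Of the 39, 26 were lower in the duodenum than in the spleen, 7 were higher and 6 did not pass the test. Over 16029 genes tested on the 6 isotype libraries, 43.8% were lower in the duodenum and 42.2% higher. The 4 immunity-related GTPases were all lower, by 1.92 to 2.47 on the log2 scale, and so were 9 of the 10 antiviral effectors. Ifi27l2a was at 72.8, 86.0 and 65.0 CPM in the spleen and at 8.65, 9.26 and 8.26 CPM in the duodenum, a log2 difference of -3.10 ± 0.12 (adjusted p = 4.4e-08). Bst2 differed by -2.01 ± 0.08, Ifit2 by -1.88 ± 0.09 and Zbp1 by -1.45 ± 0.13. The 7 that were higher in the duodenum were Ifih1, Lgals9, Ifit1, Lgals3bp, Ifi35, Eif2ak2 and Trim25. Ifih1 was at 30.3, 34.0 and 27.5 CPM in the spleen and at 122, 117 and 119 CPM in the duodenum, a log2 difference of 1.96 ± 0.08 (adjusted p = 7.6e-08). These isotype libraries also enter the tests of AC H6, so the levels are set beside the changes and no relation between them is given.

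Other genes of interferon production and signalling were taken from a list of 34, of which 30 had a row of that name. In the duodenum 26 were tested, of which 10 rose and 3 fell, against 18.5% and 16.1% of all 15667 genes tested. Tmem173, which encodes the DNA-signalling adaptor STING, was at 6.14, 6.22 and 6.53 CPM under isotype and at 14.8, 14.1 and 15.4 CPM under AC H6 (1.23 ± 0.08, adjusted p = 2.58e-05). Irf5, a transcription factor downstream of Toll-like receptors, rose by 1.16 ± 0.09, and Nlrc5, the activator of MHC class I genes, by 1.22 ± 0.11. Socs1, a feedback inhibitor of JAK kinases, was low and rose by 1.34 ± 0.16 from 1.41 to 1.75 CPM to 3.51 to 4.51 CPM. Among the receptors, Ifnar2 rose by 0.54 ± 0.07 and Ifngr1, of the interferon gamma receptor, by 0.50 ± 0.07. Tlr7 (0.80 ± 0.18), Tlr9 (0.89 ± 0.16) and their chaperone Unc93b1 (0.40 ± 0.05) rose as well, as did the RNA editor Adar (0.19 ± 0.06). The kinases Jak2 (-0.32 ± 0.09) and Tbk1 (-0.22 ± 0.06) and the adaptor Ticam1 (-0.24 ± 0.07) fell.

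In the spleen none of 27 tested genes of that list was called by the edgeR fit of the 6 spleen libraries. At an unadjusted p under 0.05 there were 8, a share near that of all spleen genes (4260 of 15270). DESeq2 called 1, higher under AC H6. The edgeR fit of all 12 libraries and the one without AC H6 replicate 2 each called 1, lower. The 3 of smallest p were Tlr7 (0.33 ± 0.08, adjusted p = 0.0597), Tmem173 (-0.20 ± 0.06, adjusted p = 0.101) and Mavs, the adaptor of the RNA sensors (0.21 ± 0.06, adjusted p = 0.102). In the interaction 9 of 27 had the higher and 3 the lower change in the duodenum, against 10.9% and 9.13% of all genes. Tmem173 differed by 1.42 ± 0.08 and Jak2 by -0.41 ± 0.10 between the tissues. No reads were counted for the ligand genes Ifnb1, Ifna2 and Ifna4 in any of the 12 libraries. With 3 counts as the limit that a count of 0 allows, these transcripts were not detectable at this depth. Other interferon alpha genes were not on the list. The type III interferon genes Ifnl2 and Ifnl3 and the receptor gene Ifnlr1 had no row of that name. Ifng had 12 to 30 counts per spleen library and 0 to 2 per duodenum library, with 1 count over the 3 duodenum isotype libraries and 4 over the AC H6 libraries.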

How the data were processed

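The authors deposited 1 table of raw gene counts per library, and per the file headers these keep reads with several matches, so values of close paralogs (the Ifit, Ifi200, Ifitm and Ifi27l2 families and the GTPases) are uncertain. Per the labels' protocols an Illumina TruSeq RNA kit was used on total RNA. The kit does not mark strand, so reads of overlapping genes cannot be told apart. Per the submitters' processing notes, reads went through Trimmomatic, bcl2fastq 2.19, STAR 2.3 (mm10) and edgeR, listed there in no stated order. For the counting tool and its annotation, the sources used here give no name.

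Groups came from the tissue and treatment labels, 3 libraries each. Genes were matched by symbol, and positions are those of GENCODE M21 and RefSeq on GRCm38. Spleen and duodenum were fitted apart, 6 libraries each, with edgeR 4.0.16 in R 4.3.3 (TMM scaling, filterByExpr, quasi-likelihood F-test, Benjamini-Hochberg over all genes). The interaction used all 12 libraries and the levels under isotype used 6. The standard error is the log2 change divided by the square root of F. Scripts were tested on simulated data. No other row had counts within 1% of a listed gene's. Libraries of a group differed by more than sampling noise (chi-square over degrees of freedom of 25.9 or more).

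The 39 genes, their roles and the other lists were chosen with earlier results of these data known. Values in every library are given for genes called in a comparison (up to 12 of smallest p), other listed genes by counts and ranges, with single changes named to complete a role. From the signalling list, called genes and up to 3 more per tissue are named, and 1 gene is not reported here. Replicate numbers come from the titles. Deviations of same-numbered spleen and duodenum libraries from their group means had correlations of 0.214, 0.381 and 0.12 under isotype. Under AC H6 they were 0.142, 0.172 and -0.185. Differently numbered libraries were not compared across the tissues, so these values cannot show whether the numbers go together. Alternatives were other size factors, no filter, a stricter filter (10 counts and a mean log2 CPM of 1), a replicate block, limma-voom (limma 3.58.1), DESeq2 1.42.0, 1 fit of all 12 libraries, erythroid and acinar covariates, removal of abundant genes, and leaving out libraries.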

Additional observations from a re-analysis of the deposited data

Results flagged for a closer look

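For 10 of the 39 genes the change under AC H6 differed between the tissues by the edgeR interaction test (adjusted p under 0.05). Over all 16655 genes tested, 20% did. The log2 change in duodenum minus that in spleen was 1.10 for Bst2, 1.20 for Ifit2, 1.04 for Ifi27l2a, 1.25 for Zbp1 and 0.97 for Herc6. For Igtp it was 0.86, for Irgm1 0.64, for Ifi47 0.70, for Ifitm3 0.58 and for Iigp1 0.67.

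From the list of other interferon production and signalling genes, 12 of 27 differed by the same test, against 20% of all 16655 genes. The difference was 1.42 for Tmem173, 1.34 for Irf5, 1.37 for Nlrc5, 1.14 for Tlr9 and 1.35 for Socs1, which encode STING, a transcription factor, the MHC class I activator, a DNA sensor and a JAK inhibitor. It was 0.46 for Ifngr1, 0.44 for Ifnar2 and 0.38 for Ifnar1, all receptor chains, and 0.43 for Unc93b1, a Toll-like receptor chaperone. It was negative for Jak2 at -0.41, Mavs at -0.33 and Tbk1 at -0.27. Ifnar1 and Mavs were called in neither tissue alone.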

How the results depend on the processing

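The spleen count of 6 called genes depended on the processing. It was 19 with DESeq2, 17 with 1 fit of all 12 libraries, 0 with the replicate block, 0 with the erythroid covariate, 0 to 14 with 1 library left out, and 0 without isotype 3 and AC H6 1, a choice made after the data were seen, as were the 2 other pairs or sets of libraries left out together. Other size factors, filters, limma-voom and removal of abundant genes gave 5 to 7. None of the 6 spleen genes kept its call in all 16 alternatives. The count over all spleen genes moved as well, from 608 to 1 under the block, 1356 with DESeq2 and 1390 with the 12-library fit. The cause was not tested. In the duodenum the count of 27 was 26 to 28 in every alternative run (27 under the block), and 25 of the 27 genes kept their calls in all 16, the exceptions being Parp14 and Rsad2. The interaction count of 10 was 8 to 14 (10 under the block), and 8 of the 10 kept their calls in all 20, the exceptions being Iigp1 and Ifitm3. The isotype levels count of 33 was 33 to 35 (35 under the block). No result listed changed sign. Same-numbered AC H6 and isotype libraries did not deviate together in every pair (correlations 0.263, -0.128 and -0.0308 in spleen, 0.403, 0.242 and -0.201 in duodenum), so the numbers were not taken as pairs. With 3 libraries a group, smaller changes could not be called in the spleen.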
